A study of Oryza sativa Japonica Group with 4 samples.

Results

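Transcripts of 10 nuclear genes for Rubisco and enzymes of the Calvin cycle were followed in rice seedlings (Oryza sativa, japonica subspecies). They were chosen by locus identifier, and all 10 were found in every library, among 28491 genes listed in at least 1 library. The loci are 3 copies of RBCS, the small subunit gene of Rubisco, and single genes for Rubisco activase, phosphoribulokinase (PRK), the A and B subunits of plastid glyceraldehyde phosphate dehydrogenase (GAPA and GAPB), sedoheptulose bisphosphatase (SBPase), plastid fructose bisphosphatase (FBPase) and plastid aldolase. The groups were a modd mutant line, titled modd2 and taken from the POSTECH mutant library, and its wild type, the cultivar DongJin, with 2 libraries each. Both were sampled as whole above-ground parts at the 4-leaf stage, from plants grown in soil under natural light with no stress treatment given in the labels. The labels give neither the kind of mutation nor whether the replicates were separate plants, so p-values rest on a spread among samples that could be technical.

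The Calvin cycle fixes carbon dioxide in the chloroplast stroma. Rubisco, built of a plastid-encoded large subunit and small subunits encoded in the nucleus, adds carbon dioxide to ribulose bisphosphate, and Rubisco activase clears inhibitory sugar phosphates from its active sites. The products are reduced by a dehydrogenase made of GAPA and GAPB, the sugar phosphates are processed by aldolase, FBPase and SBPase, and PRK remakes the acceptor. Transcripts of the small subunit and of activase are abundant in rice leaves, and the genes of the cycle are expressed chiefly in green cells.

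The libraries held from 5334814 to 5393972 expected reads, RSEM's estimates of reads per gene. MODD (LOC_Os03g11550) was at 36.9 and 46.6 FPKM in the mutant-labelled libraries, against 21.0 and 21.3 FPKM in DongJin, so the transcript was higher in the libraries labelled mutant (log2 fold change 0.93 ± 0.146, SE, edgeR adjusted p = 0.0272). Groups are therefore named as labelled. Green tissue was evident from 6 loci listed for light-harvesting proteins and PSBS, which summed to 9996 and 11635 FPKM in the mutant-labelled libraries, against 11947 and 13749 FPKM in DongJin. DongJin replicate 2 stood apart from DongJin replicate 1 in the genes described here, so results are also given without it. That library was picked from these same values, so leaving it out is not an independent check.

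No gene of the 10 passed the test between the groups, and in 9 of them the highest FPKM was that of DongJin replicate 2. In 9 of the 10 genes the log2 fold change of the mutant-labelled libraries over DongJin was below 0, beside 49.4% of all tested genes. The median of the 10 was -0.16, beside 0.00 over all 19365 genes tested. By edgeR's quasi-likelihood test 0 of the 10 were called at an adjusted p under 0.05, where 0.837% of all tested genes were called. At an unadjusted p under 0.05 there was 1 member, beside 16.8% of all tested genes, and DESeq2 called 0 of the 10, beside 1.81%. Without DongJin replicate 2 the median was -0.04, and 6 of the 10 were below 0, beside 49.4% of all tested genes. Without DongJin replicate 1 it was -0.31, and all 10 were below 0, as were 9533 of the 19365 genes tested over all 4 libraries. The median was -0.10 without replicate 1 labelled mutant, with 9 of the 10 below 0. It was -0.24 without replicate 2 labelled mutant, with all 10 below 0.

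Together the 10 genes accounted for 2.28 and 2.41% of reads in the mutant-labelled libraries, against 2.40 and 2.78% in DongJin. The share of the 3 RBCS copies was 1.12 and 1.16% in the mutant-labelled libraries, against 1.12 and 1.33% in DongJin. On both measures DongJin replicate 1 lay at or between the mutant-labelled libraries, and DongJin replicate 2 lay above all others. In bulk tissue, fewer green cells and less of a transcript per cell cannot be told apart.

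**Figure D1:**
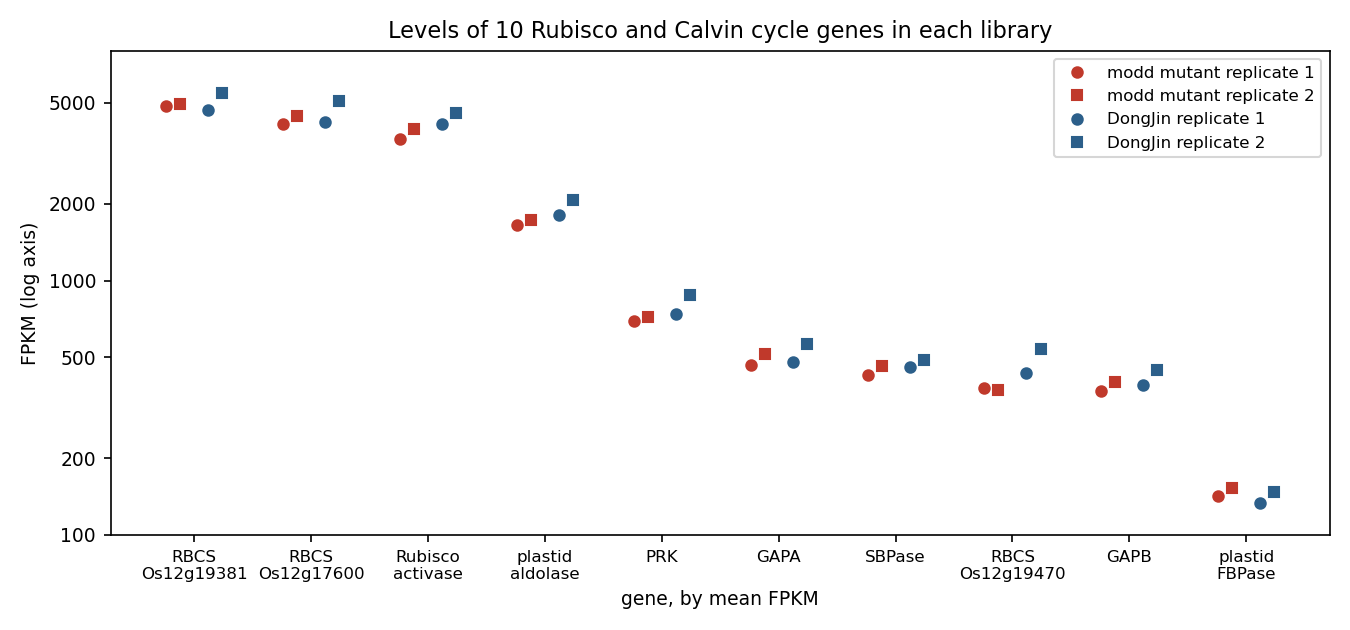
FPKM (log axis) of the 10 genes in each of the 4 libraries, ordered by mean level, with mutant-labelled libraries in red and DongJin in blue, circles for replicate 1 and squares for replicate 2. DongJin replicate 2 is the highest point for every gene except plastid FBPase, and the genes run from about 4986 FPKM for RBCS at LOC_Os12g19381 to 144 FPKM for plastid FBPase.

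FPKM is corrected for length, so levels can be set beside each other. The order still depends on the listed lengths and on how reads of similar genes were divided. Averaged over the 4 libraries, RBCS at LOC_Os12g19381 stood highest, 34.5 times the level of plastid FBPase, which was lowest. RBCS at LOC_Os12g17600, Rubisco activase, plastid aldolase, PRK and GAPA followed in that order in each of the 4 libraries. Below them SBPase, RBCS at LOC_Os12g19470 and GAPB were close, and their order changed between libraries. Among all genes, RBCS at LOC_Os12g19381 ranked 2 or 3, RBCS at LOC_Os12g17600 ranked 4 and Rubisco activase ranked 5 in every library, while plastid FBPase ranked between 483 and 597.

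The small subunit copies were first compared one by one. RBCS at LOC_Os12g17600 had 4123 and 4449.9 FPKM in the mutant-labelled libraries, against 4205 and 5085 FPKM in DongJin. RBCS at LOC_Os12g19381 had 4862 and 4949 FPKM in the mutant-labelled libraries, against 4683 and 5448 FPKM in DongJin. For both abundant copies the groups overlapped, as DongJin replicate 1 was below the mutant-labelled libraries or between them. Their log2 fold changes were -0.16 ± 0.167 and -0.09 ± 0.161 (SE, n = 2 per group, edgeR adjusted p = 0.664 and 0.814). The 95% intervals allowed from 0.691 to 1.16 times the DongJin level for LOC_Os12g17600, and from 0.732 to 1.20 times for LOC_Os12g19381. Without DongJin replicate 2 both fold changes turned slightly positive, at 0.017 and 0.056.

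The least abundant copy differed most. RBCS at LOC_Os12g19470 had 378 and 370.3 FPKM in the mutant-labelled libraries, against 432 and 536 FPKM in DongJin. Here both mutant-labelled libraries were below both DongJin libraries. The log2 fold change was -0.42 ± 0.144 (SE), or 0.748 times the DongJin level with a 95% interval from 0.599 to 0.934. It was the 1 member with an unadjusted p under 0.05 and did not pass after adjustment over all genes (edgeR adjusted p = 0.186). DESeq2 gave an adjusted p of 0.122. Without DongJin replicate 1 the fold change was -0.60 and passed (edgeR adjusted p = 0.000857), in a comparison that called 12.4% of all genes tested. Without DongJin replicate 2 it was -0.22 (edgeR adjusted p = 0.531).

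Expected counts of the 3 RBCS copies held fractions, which mark reads shared among similar genes, so the split between copies is uncertain. Each value also depends on the gene model: the listed length was 1161 bases for LOC_Os12g17600 and 1164 for LOC_Os12g19381, but between 2163 and 2169 for LOC_Os12g19470. Within the RBCS pool, LOC_Os12g19470 made up 4.04 and 3.79% of the summed FPKM in the mutant-labelled libraries, against 4.64 and 4.84% in DongJin. That share was lower in both mutant-labelled libraries, and the gap did not hinge on DongJin replicate 2. LOC_Os12g19381 made up 51.9 and 50.7% in the mutant-labelled libraries, against 50.2 and 49.2% in DongJin. The share of LOC_Os12g17600 overlapped between the groups, at 44.0 and 45.5% in the mutant-labelled libraries and 45.1 and 45.9% in DongJin.

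A sum of counts over the copies does not depend on how shared reads were split among them, whereas a sum of FPKM still does, as the listed lengths differ. The RBCS sum was 9362 and 9769.7 FPKM in the mutant-labelled libraries, against 9320.5 and 11068 FPKM in DongJin. By this FPKM sum DongJin replicate 1 was the lowest of the 4 libraries and DongJin replicate 2 the highest, so the groups overlapped. As a share of reads, DongJin replicate 1 and replicate 1 labelled mutant were level, at 1.117%. With the expected counts of the copies summed before the fit, the log2 fold change was -0.15 ± 0.177 (SE, edgeR adjusted p = 0.711), and the 95% interval ran from 0.687 to 1.19 times the DongJin level. It was 0.017 without DongJin replicate 2 and -0.30 without DongJin replicate 1.

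Rubisco activase (LOC_Os11g47970) had 3609 and 3936 FPKM in the mutant-labelled libraries, against 4106 and 4547 FPKM in DongJin. The groups did not overlap. The log2 fold change was -0.24 ± 0.159 (SE, edgeR adjusted p = 0.475), with a 95% interval from 0.662 to 1.08 times the DongJin level, and it stayed below 0 without DongJin replicate 2, at -0.13. Set against its substrate enzyme, activase stood at 0.385 and 0.403 of the summed RBCS level in the mutant-labelled libraries, against 0.441 and 0.411 in DongJin. The nearest libraries of the groups, at 0.403 and 0.411, were closer to each other than the libraries within either group.

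In the reduction step, the subunit genes of plastid glyceraldehyde phosphate dehydrogenase were measured side by side. GAPA (LOC_Os04g38600) had 467 and 512 FPKM in the mutant-labelled libraries, against 478 and 565 FPKM in DongJin. GAPB (LOC_Os03g03720), whose product carries the tail that gives the enzyme its regulation by light, had 368 and 399 FPKM in the mutant-labelled libraries, against 389 and 446 FPKM in DongJin. For both subunits the groups overlapped, with DongJin replicate 1 between the mutant-labelled libraries. The log2 fold changes were -0.14 ± 0.141 for GAPA and -0.17 ± 0.133 for GAPB (SE, edgeR adjusted p = 0.646 and 0.565). They were 0.018 and -0.031 without DongJin replicate 2.

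The ratio of the subunits varied far less than either level. GAPA stood at 1.27 and 1.28 times GAPB in the mutant-labelled libraries, against 1.23 and 1.27 times in DongJin. Counting error alone gives each of these ratios a relative SE of 2.02 to 2.24%, so the libraries could not be told apart by it at this depth. The listed length of GAPA, which RSEM weights over 4 transcripts, was 1718 bases in replicate 1 labelled mutant and 1735 in the other 3 libraries.

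Of the enzymes that regenerate the acceptor, PRK and plastid aldolase were lower in both mutant-labelled libraries than in either DongJin library, and neither passed the test. PRK (LOC_Os02g47020) had 695 and 720.2 FPKM in the mutant-labelled libraries, against 742 and 879.5 FPKM in DongJin. Its log2 fold change was -0.24 ± 0.142 (SE, edgeR adjusted p = 0.429), and it was -0.08 without DongJin replicate 2. Plastid aldolase (LOC_Os11g07020) had 1649.7 and 1723 FPKM in the mutant-labelled libraries, against 1807 and 2068 FPKM in DongJin. Its log2 fold change was -0.25 ± 0.15 (SE, edgeR adjusted p = 0.445), and it was -0.11 without DongJin replicate 2. Expected counts of the aldolase gene also held fractions.

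The bisphosphatases are both activated by thioredoxin in the light. SBPase (LOC_Os04g16680), which acts in the plastid alone, had 425 and 460.4 FPKM in the mutant-labelled libraries, against 455 and 489 FPKM in DongJin. Its log2 fold change was -0.14 ± 0.125 (SE, edgeR adjusted p = 0.621), and it was -0.051 without DongJin replicate 2. Plastid FBPase (LOC_Os03g16050) had 143 and 154 FPKM in the mutant-labelled libraries, against 133.5 and 148 FPKM in DongJin. Its highest value was in replicate 2 labelled mutant, and it was the 1 member with a log2 fold change above 0 (0.03 ± 0.115, SE, edgeR adjusted p = 0.922). The 95% interval ran from 0.855 to 1.22 times the DongJin level for FBPase and from 0.750 to 1.10 times for SBPase. The sign for FBPase turned with single libraries, to -0.076 without DongJin replicate 1 and -0.036 without replicate 2 labelled mutant.

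**Figure D2:**
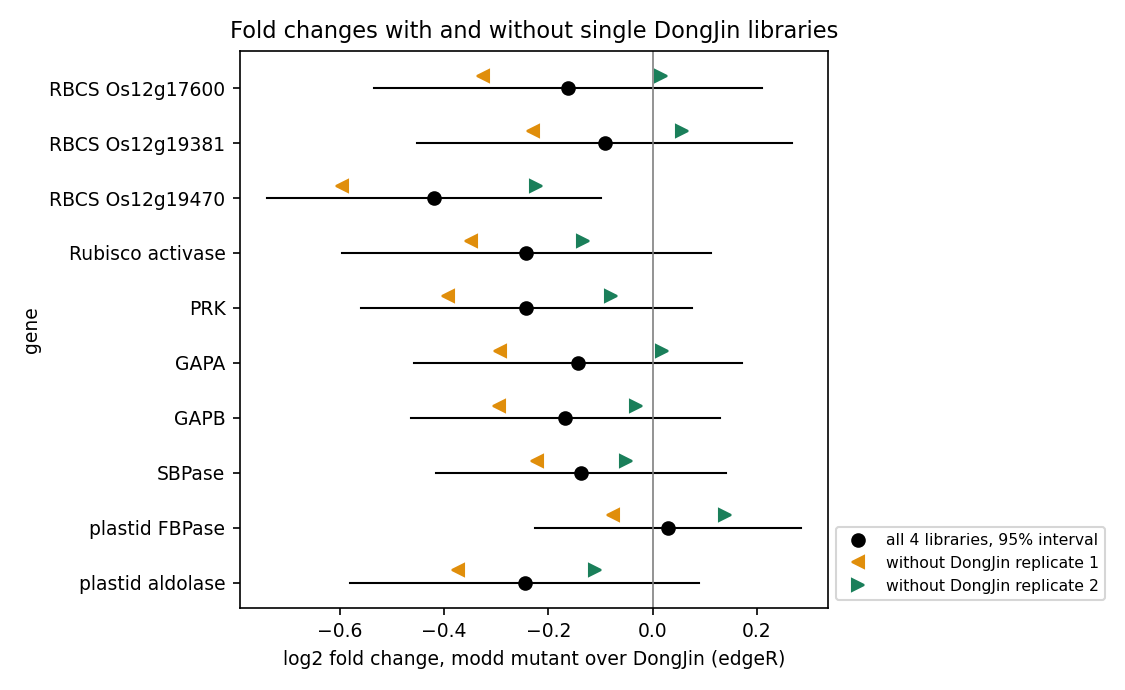
Log2 fold change of the mutant-labelled libraries over DongJin for each gene, with black points and bars for the edgeR value and its 95% interval over all 4 libraries, and triangles for the value without DongJin replicate 1 or replicate 2. All intervals but that of RBCS at LOC_Os12g19470 span 0. The values lie further right without DongJin replicate 2 for every gene, which follows from that library being above DongJin replicate 1 in all 10.

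Over the 10 genes, 4 were lower in both mutant-labelled libraries than in both DongJin libraries by FPKM (RBCS at LOC_Os12g19470, Rubisco activase, PRK and plastid aldolase), beside 21.1% of all tested genes. None was higher without overlap, beside 28.6% of all tested genes. DongJin replicate 2 exceeded DongJin replicate 1 in all 10, by 7.38% for SBPase up to 23.9% for RBCS at LOC_Os12g19470, beside 40.7% of all tested genes that were higher in that library. Between the mutant-labelled libraries, replicate 2 exceeded replicate 1 in 9 of the 10, by 1.81 to 9.82%, beside 44.8% of all tested genes. RBCS at LOC_Os12g19470 was the exception. Counting error is small beside these gaps for most of the genes: the relative SE of a member's count ran from 0.541% for Rubisco activase to 3.06% for plastid FBPase.

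In 7 of the 10 genes the DongJin libraries lay further apart than the means of the groups (log2 of FPKM + 1), beside 50.4% of all tested genes. The lowest library was replicate 1 labelled mutant and the highest DongJin replicate 2 in 7 of the 10, beside 10.8% of all tested genes. Genes of 1 pathway that share 4 libraries are not independent of each other, so these counts describe the libraries and not the genotypes.

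Ratios between enzymes remove what a library has in common across them, and 10 were formed. With 2 libraries per group an exact two-sided permutation test cannot give a p below 0.333, so they are given as values. Plastid FBPase stood at 0.336 and 0.333 of SBPase in the mutant-labelled libraries, against 0.293 and 0.303 in DongJin. The gap between the groups was larger than the gap within either, although counting error alone gives each value a relative SE of 3.25 to 3.44%. PRK stood at 1.49 and 1.41 times GAPA in the mutant-labelled libraries, against 1.55 and 1.56 times in DongJin. The ratio of PRK to SBPase overlapped, at 1.64 and 1.56 in the mutant-labelled libraries and 1.63 and 1.80 in DongJin. Several ratios share a gene. Of the 10, 7 did not overlap between the groups, beside 49.7% of single genes tested. The share among ratios of other genes was not computed, so that percentage is no background for the 7.

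**Figure D3:**
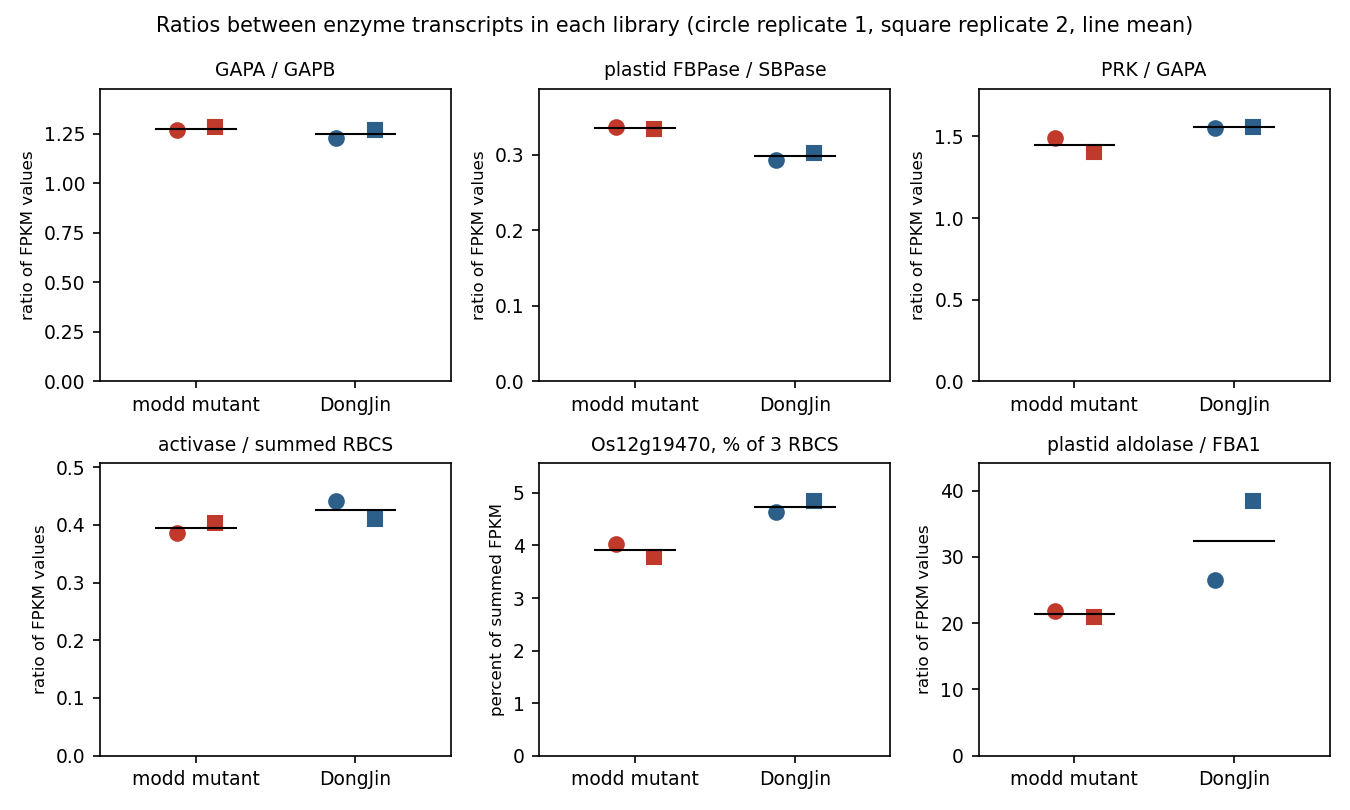
Ratios of FPKM values, and the share of RBCS at LOC_Os12g19470 in the 3 copies, in each library, with circles for replicate 1, squares for replicate 2 and lines for group means (axes start at 0). GAPA to GAPB is nearly level across the 4 libraries, at 1.23 to 1.28, while plastid aldolase to FBA1 runs from 20.9 to 38.4.

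Several steps of the cycle have a counterpart in cytosolic glycolysis and sucrose synthesis, which uses the same reactions through other genes. Of 8 such loci 7 were tested, and 0 were called in either direction by edgeR or DESeq2, beside 0.837 and 1.81% of all tested genes. Their median log2 fold change was 0.22, with 6 of 7 above 0, beside 9806 of all 19365 genes tested. By FPKM, 5 of 7 were higher in both mutant-labelled libraries than in either DongJin library, beside 28.6% of all tested genes. At an unadjusted p under 0.05 there were 2, both higher, beside 16.8% of all tested genes in either direction. FBA1 (LOC_Os05g33380), a cytosolic aldolase gene, had 75.5 and 82.5 FPKM in the mutant-labelled libraries, against 68.2 and 53.9 FPKM in DongJin (log2 fold change 0.33 ± 0.121, SE, edgeR adjusted p = 0.213). Plastid aldolase stood at 21.8 and 20.9 times FBA1 in the mutant-labelled libraries, against 26.5 and 38.4 times in DongJin. GAPC2 (LOC_Os04g40950), for the cytosolic dehydrogenase, had 326 and 335 FPKM in the mutant-labelled libraries, against 293 and 229.5 FPKM in DongJin (log2 fold change 0.30 ± 0.125, SE, edgeR adjusted p = 0.266). CFBP1 (LOC_Os01g64660), the cytosolic fructose bisphosphatase gene, was the 1 tested counterpart with a log2 fold change below 0 (-0.15, edgeR adjusted p = 0.604). It had 71.1 and 77.2 FPKM in the mutant-labelled libraries, against 72.1 and 86.9 FPKM in DongJin. The difference between the plastid and cytosolic lists was not tested. Without DongJin replicate 2 the medians were -0.04 for the 10 plastid genes and 0.10 for the cytosolic genes.

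Another 11 loci of the cycle were entered for other steps, more copies of RBCS and plastid aldolase, and the regulator CP12. Of these, 10 were tested and 0 were called by edgeR or DESeq2, beside 0.837 and 1.81% of all tested genes. At an unadjusted p under 0.05 there was 1, which was higher, beside 16.8% of all tested genes in either direction. By FPKM, 3 of 10 were lower in both mutant-labelled libraries than in either DongJin library, beside 21.1% of all tested genes. Another 2 were higher in both, beside 28.6%: a locus entered for CP12 (LOC_Os01g19740) and the extra copy of plastid aldolase. That CP12 locus had 742 and 683 FPKM in the mutant-labelled libraries, against 541 and 618 FPKM in DongJin. Its log2 fold change was 0.25 ± 0.124 (SE, edgeR adjusted p = 0.335). The other CP12 locus (LOC_Os03g19380), 1 of the 3 that were lower, was at -0.22 (edgeR adjusted p = 0.322). For the extra RBCS copy the groups overlapped. The 10 log2 fold changes ran from -0.23 to 0.34 with a median of -0.09, and 6 of 10 were below 0, beside 49.4% of all tested genes. That median was 0.0031 without DongJin replicate 2, with 5 below 0 and 5 above. Over all 4 libraries, the extra copies of RBCS (LOC_Os02g05830) and plastid aldolase (LOC_Os01g02880) were at 0.33 and 0.34 (edgeR adjusted p = 0.484 and 0.262). The aldolase copy was the 1 at an unadjusted p under 0.05, and both copies stood at or below 25.4 FPKM in every library. RPE (LOC_Os03g07300), for ribulose phosphate epimerase, had 276 and 294 FPKM in the mutant-labelled libraries, against 274 and 296 FPKM in DongJin, so its groups were interleaved. Photorespiration, which recycles the product Rubisco makes with oxygen, was represented by 7 loci. All 7 were tested, 0 were called by edgeR or DESeq2, and 0 had an unadjusted p under 0.05, beside 16.8% of all tested genes. By FPKM, 3 of 7 were lower in both mutant-labelled libraries than in either DongJin library, beside 21.1% of all tested genes. All 7 were below 0 in log2 fold change, beside 49.4% of all tested genes, the median being -0.17. Without DongJin replicate 2 that median was -0.08. The glycolate oxidase gene GLO1 (LOC_Os03g57220) had 528 and 552 FPKM in the mutant-labelled libraries, against 565 and 622 FPKM in DongJin (log2 fold change -0.18, edgeR adjusted p = 0.519).

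**Figure D4:**
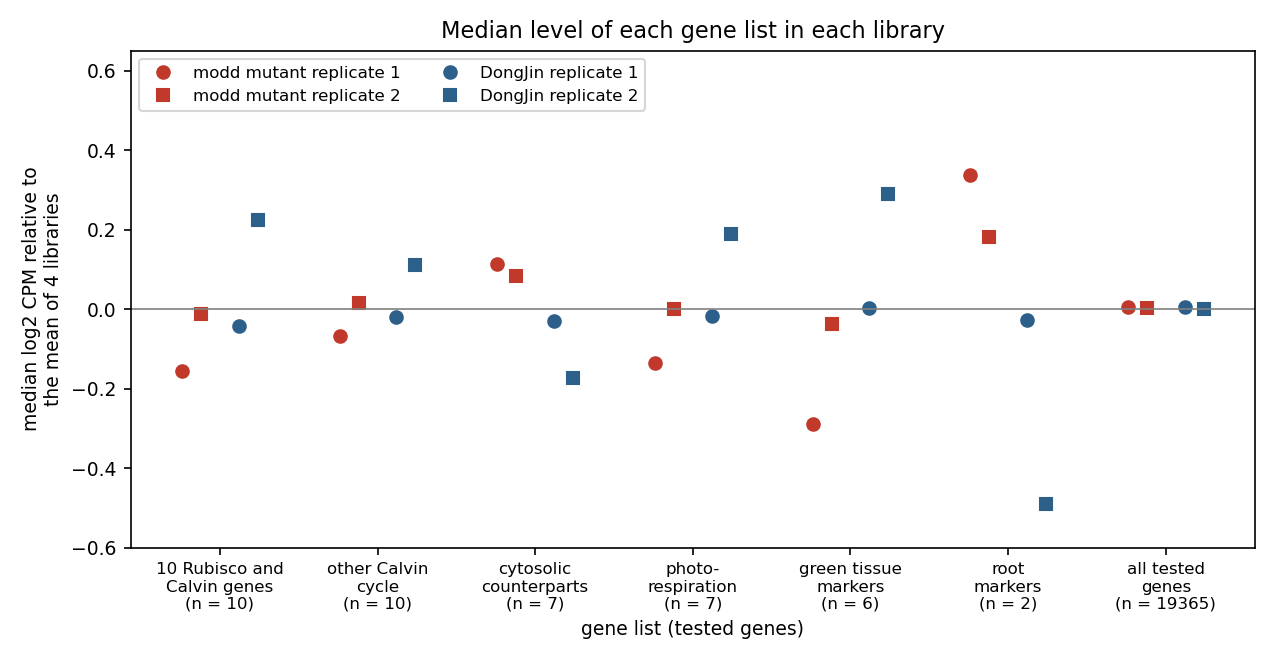
Median log2 CPM of the tested genes of each list in each library, relative to the mean of the 4 libraries, with mutant-labelled libraries in red and DongJin in blue, circles for replicate 1 and squares for replicate 2. The 10 Rubisco and Calvin cycle genes are at -0.16 and -0.01 in the mutant-labelled libraries and at -0.04 and 0.22 in DongJin, and the cytosolic counterparts and the 2 tested root markers show the opposite order of their extremes.

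Markers of root cells were summed beside those of green cells. The 6 root loci (LSI1, LSI2, OsHKT2;1, OsNRT2.1, OsYSL15 and OsIRT1, known for nutrient uptake) summed to 19.4 and 17.2 FPKM in the mutant-labelled libraries, against 15.8 and 12.2 FPKM in DongJin. No table had a row for LSI2, OsYSL15 or OsNRT2.1, and only LSI1 and OsHKT2;1 reached the count minimum. Both were highest in replicate 1 labelled mutant and lowest in DongJin replicate 2, the reverse of the summed green loci. OsIRT1 did not share that order, with 0.37 and 0.25 FPKM in the mutant-labelled libraries, against 0.37 and 0.49 FPKM in DongJin. Among the 6 green tissue loci 0 were called by edgeR or DESeq2, beside 0.837 and 1.81% of all tested genes. At an unadjusted p under 0.05 there were 2, both lower, beside 16.8% of all tested genes in either direction. By FPKM, 5 of 6 were lower in both mutant-labelled libraries than in either DongJin library, beside 21.1% of all tested genes. The median log2 fold change of the 6 was -0.30. That median was -0.15 without DongJin replicate 2 and -0.44 without DongJin replicate 1. In median level the green loci were at -0.29 and -0.04 in the mutant-labelled libraries and at 0.00 and 0.29 in DongJin, on the log2 scale relative to all 4. The meristem gene OSH1 was at or below 0.66 FPKM in every library. Whether tissue makeup had a part in the levels of the 10 genes was not tested.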

How the data were processed

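Each of the 4 libraries had 1 gene table, with transcript names, a length and, per the file headers, an expected count and FPKM for every gene. The submitters' processing notes list BWA, Bowtie and RSEM with no version or role, and no source used here states the genome build. The deposited expected counts are estimated reads per gene, in which reads of similar genes are divided. The deposited FPKM values scale these counts by length and library size. Genes without a row in a table were set to 0; the 10 genes described had a row in every table.

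Expected counts were rounded and analysed in R 4.3.3 with edgeR 4.0.16: filterByExpr (minimum count 10, minimum total 15), TMM factors, a robust quasi-likelihood fit without covariates, and Benjamini-Hochberg adjustment over 19365 genes at 0.05. The procedure was tried on simulated counts. The SE is the absolute log2 fold change divided by the square root of F. The RBCS sum replaced its 3 copies in a second fit. All 10 chosen genes are named with their values. Of other lists, a gene is named only if its symbol is in the reference table on the same chromosome. The extra copies of RBCS and plastid aldolase, and the CP12 loci, are given by locus.

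The genes and lists were chosen with earlier results of these data known. The reference gene table (assembly ASM3414082v1) matched 0 of the files' identifiers. All 22 symbols looked up in it were found on the chromosome that the locus name gives, and the other list entries rest on locus numbers alone. Several list symbols were changed to those of the table after the files were read, with no change of locus. Other settings tried were upper-quartile and RLE factors, DESeq2 1.42.0, no count filter, a non-robust fit, the replicate number as a block, each library left out, and limma 3.58.1 on log2(FPKM + 1) and log2(FPKM + 0.1).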

Additional observations from a re-analysis of the deposited data

How the results depend on the processing

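Over the 12 alternatives the 10 genes gave 120 log2 fold changes. Of these, 114 kept their direction and their side of the threshold, 5 changed sign and 1 passed, RBCS at LOC_Os12g19470 without DongJin replicate 1. The changes of sign came with single libraries left out. The ranges with each library left out were -0.32 to 0.017 for RBCS at LOC_Os12g17600, -0.23 to 0.056 for RBCS at LOC_Os12g19381, -0.29 to 0.018 for GAPA, -0.076 to 0.14 for plastid FBPase and -0.30 to 0.017 for the summed RBCS copies. The upper ends came without DongJin replicate 2 and the lower ends without DongJin replicate 1. DongJin replicate 2 was the higher DongJin library for all 10 genes, so leaving it out raises each fold change. The number of the 10 genes called was 0 to 1 with single libraries left out, and 0 under every other alternative. The median of the 10 ran from -0.31 to -0.04 with single libraries left out and from -0.17 to -0.12 under the others. Using counts per listed length left all 10 ratios within the spread between replicates. FPKM is itself a count scaled by length, so this check could hardly change a ratio within a library.

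Over all genes, 162 were called, with 97 rises and 65 falls in the mutant-labelled libraries. The number was 350 with DESeq2, with 160 rises and 190 falls, 764 with no filter on counts (390 higher, 374 lower), 102 with upper-quartile factors, 1 with limma at either pseudocount, and 144 to 2483 with single libraries left out. The highest came without DongJin replicate 1, and it was 591 without replicate 2 labelled mutant and 457 without DongJin replicate 2. With 1 library left in a group, that library is assumed to vary like the other group. The non-robust fit gave 180 calls, 89 higher and 91 lower. The cause of these differences was not tested.

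With the replicate number as a block, 870 genes were called (377 higher, 493 lower), 0 of them among the 10, although 4 of the 10 had an unadjusted p under 0.05, as did 3501 of the 19365. The numbers only name the samples: across genes, the replicate differences of the groups had a correlation of 0.015. The summed RBCS copies were at -0.14 with the block. The RBCS sum was not refitted without the count filter. Depth limits plastid FBPase most, with a counting SE of 2.85 to 3.06% per library.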
